A study of Mus musculus with 24 samples.

Results

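Wild-type bone marrow-derived macrophages (BMDM) exposed to interleukin 4 (IL4) for 10 h were set against untreated BMDM of the same genotype. The members are 4 libraries of the 24 in the series, chosen by their labels, 2 per group. The 10 h group consisted of wild-type C57BL/6 BMDM given IL4 at 20 ng/ml, and the untreated group of wild-type C57BL/6 BMDM without IL4. Wild-type BMDM after 24 h of IL4, and BMDM labelled Tet2 knockout at 10 h and untreated, were described only for comparison, with 2 libraries each. These libraries and the labelled knockout ones at 24 h were also in the fit. They therefore helped to set which genes were tested, the standard errors and the p-values. All cultures were grown from total marrow for 7 days with L929-conditioned medium and recombinant M-CSF, the growth factor of macrophages, and were moved on the eve of stimulation to DMEM with serum, which lacked both supplements. The untreated cells are the 0 h sample, and no untreated cells kept for 10 further hours were analysed here, so IL4 and the extra hours in that medium cannot be told apart. The design text calls the replicates biological without saying whether they came from separate mice. The p-values thus measure the spread within the groups of all 12 BMDM libraries, which may be technical. Bulk RNA does not tell a changed share of cells from a changed amount of RNA per cell.

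IL4 is a type 2 cytokine made by T helper cells, mast cells and innate lymphoid cells. It binds a receptor of the IL4 receptor alpha chain and a partner chain, and Janus kinases on the receptor activate the transcription factor STAT6, which enters the nucleus and binds DNA. In macrophages this leads to alternative activation, known from worm infection, allergy and tissue repair, in which arginase, lectin receptors, secreted resistin-like and chitinase-like proteins and eosinophil-attracting chemokines are made and lipid use changes.

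Ribosomal RNA was depleted before sequencing, and expression was deposited as FPKM (fragments per kilobase of transcript, normalized to library size), a scale on which levels of different genes can be compared. The 4 libraries summed to 481102 and 484228 FPKM at 10 h, against 445502 and 365118 FPKM in untreated cells, and untreated replicate 2 had the lowest total. The number of reads is unknown, but steps between low values gave depths relative to untreated replicate 1 of 1.419 and 1.086 at 10 h and 1.013 in untreated replicate 2. Macrophage genes were high in all 4: Csf1r, the M-CSF receptor, had 564 and 590.3 FPKM at 10 h, against 569.7 and 553 FPKM in untreated cells, and the surface marker Emr1, which encodes F4/80, had 571 and 540.2 FPKM at 10 h, against 456 and 339 FPKM in untreated cells. Of the defining genes of other cells, several picked after their values were seen were at or near 0. These were Pax5 of B cells at 0 in all 4 libraries, Cd3e of T cells at 0.0286 and 0 FPKM against 0 and 0.112 FPKM, Flt3 of dendritic cells at 0.0225 and 0 FPKM against 0 and 0 FPKM and Cdh5 of endothelium at 0.0325 and 0.0137 FPKM against 0.0157 and 0.062 FPKM, 10 h against untreated. Not all such markers were that low: the T cell marker Cd4 had 1.23 and 1.06 FPKM at 10 h, against 4.77 and 4.21 FPKM in untreated cells. The endothelial marker Vwf had 4.84 and 4.85 FPKM at 10 h, against 1.69 and 1.55 FPKM in untreated cells. The 9 neutrophil markers summed to 103.87 and 77.80 FPKM at 10 h, against 122.13 and 85.97 FPKM in untreated cells.

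The response was broad. Of 10510 tested genes, 4461 passed the threshold of an adjusted p of 0.05 (42.4%), 2965 of them higher at 10 h (28.2%) and 1496 lower (14.2%). The counts of risers and fallers in the gene lists below are to be read against these shares. With only the 4 compared libraries in the fit, 3362 genes passed, 2249 higher and 1113 lower. All changes are differences of log2(FPKM + 1) with the standard error (SE) after the ± sign, which understates the change of weakly expressed genes, and the adjusted p comes from limma, a linear model fitted across all genes. At least 2-fold changes were found in 757 genes (7.2%), of which 548 were higher (5.21%) and 209 lower (1.99%). After quantile normalization these were 370 and 323, so that 53.4% were higher, against 72.4% on the deposited values. On the deposited values the largest changes were mostly increases, with 94 genes higher and 15 lower by at least 2 on the log2 scale, and 19 higher and 2 lower by at least 4. The pseudocount of 1 caps falls, because a gene below 1 FPKM in untreated cells cannot fall 2-fold on this scale. Among genes with an untreated mean of 0 to 1 FPKM, 85 were at least 2-fold higher and 0 lower. With a pseudocount of 0.1, 736 genes were at least 2-fold higher and 401 lower, so that 64.7% were higher. The 2 libraries of the 10 h group lay wholly above or below the 2 untreated ones for 72.2% of tested genes. The median change of all tested genes was 0.09. The share of higher genes among the calls depended on scaling: it was 66.5% on the deposited values, 54.2% with median-of-ratios factors and 48.9% after quantile normalization. That last step moved the median of all genes by −0.113.

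**Figure D1:**
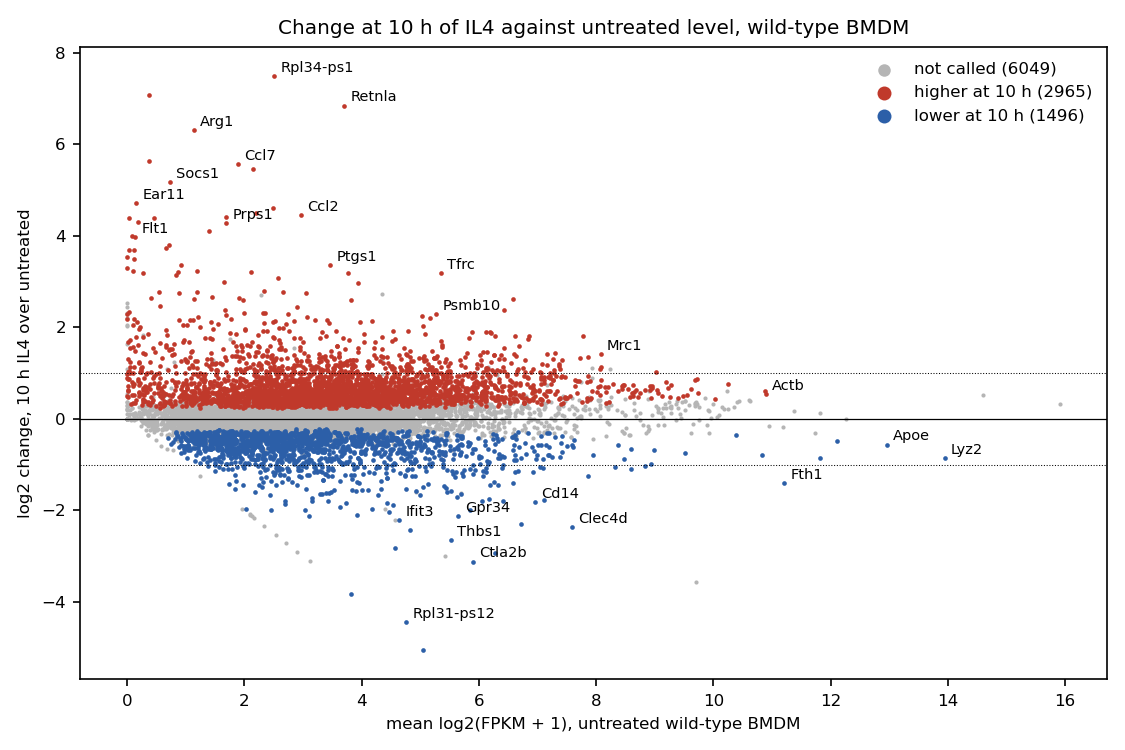
Each point is 1 of the 10510 tested genes in wild-type BMDM; the x axis is the mean log2(FPKM + 1) of the 2 untreated libraries, the y axis the log2 change at 10 h of IL4 over untreated, and dotted lines mark 2-fold. Red points are the 2965 genes higher at 10 h and blue points the 1496 lower ones; the tallest points lie above 4 and almost all belong to genes that were low in untreated cells.

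Effectors of alternative activation were among the strongest risers, with Retnla and Arg1 behind only a pseudogene and a small RNA. Retnla, encoding the secreted resistin-like protein RELM alpha, had 1615 and 1393 FPKM at 10 h, against 13.3 and 10.9 FPKM in untreated cells. Retnla had a log2 change of 6.84 ± 0.18 (limma, adjusted p = 2.1e-09). Arg1, the enzyme that splits arginine into ornithine and urea, had 186 and 159 FPKM at 10 h, against 1.38 and 1.03 FPKM in untreated cells. For Arg1 this was a log2 change of 6.30 ± 0.12 (limma, adjusted p = 7.3e-10). Its partner Slc7a2, a transporter of arginine, had 20.2 and 19.7 FPKM at 10 h, against 0.716 and 0.449 FPKM in untreated cells. The change of Slc7a2 came to 3.73 ± 0.10 in log2 (limma, adjusted p = 2.1e-09). For all 3 genes the groups lay far apart, and neither group's libraries differed by as much as 2-fold. Of 40 tested effectors, 30 rose and 2 fell, with a median change of 1.43. With 1 FPKM required in every library, which drops members that were low before treatment, 24 remained, of which 16 rose and 2 fell, again with a median of 1.43. The lectin receptor genes Mgl2 (4.60 ± 0.17), Clec7a (1.80 ± 0.15) and Mrc1 (1.42 ± 0.13), the last being the mannose receptor CD206, were among the risers (adjusted p = 2.0e-08, 9.0e-06 and 1.6e-05, limma). Mrc1 stood out by level, at 725 and 719 FPKM at 10 h, against 304 and 237 FPKM in untreated cells. Flt1, encoding a receptor of vascular growth factors, had 16.8 and 15.9 FPKM at 10 h, against 0.127 and 0.0717 FPKM in untreated cells. Flt1 changed by 3.98 ± 0.11 on the log2 scale (limma, adjusted p = 2.1e-09). Il4i1, a secreted oxidase of aromatic amino acids named for its induction by IL4, had 22.2 and 21.3 FPKM at 10 h, against 1.15 and 0.245 FPKM in untreated cells. Il4i1 had a log2 change of 3.80 ± 0.25 (limma, adjusted p = 1.5e-06). Ear11, an eosinophil-associated ribonuclease gene with near-identical relatives whose reads may be shared, had 29.1 and 27.4 FPKM at 10 h, against 0 and 0.232 FPKM in untreated cells. For Ear11 this was a log2 change of 4.72 ± 0.18 (limma, adjusted p = 3.0e-08).

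Several of the highest changes were in genes with less usual roles in macrophages. Adipoq, which encodes the fat cell hormone adiponectin, had 19.7 and 21.1 FPKM at 10 h, against 0 and 0.0433 FPKM in untreated cells. The change of Adipoq came to 4.39 ± 0.10 in log2 (limma, adjusted p = 7.3e-10). Scn3a, a voltage-gated sodium channel subunit, had 15.9 and 16.1 FPKM at 10 h, against 0.057 and 0.0603 FPKM in untreated cells. Scn3a changed by 4.01 ± 0.09 on the log2 scale (limma, adjusted p = 7.3e-10). Tmem26, a transmembrane protein gene, had 22.2 and 21 FPKM at 10 h, against 0.109 and 0.173 FPKM in untreated cells. Tmem26 had a log2 change of 4.31 ± 0.10 (limma, adjusted p = 9.8e-10). In untreated cells these 3 genes did not reach 0.2 FPKM in either library, and at 10 h all were above 15 FPKM. Gda, guanine deaminase, had 104 and 100.1 FPKM at 10 h, against 3.95 and 3.25 FPKM in untreated cells. For Gda this was a log2 change of 4.49 ± 0.09 (limma, adjusted p = 7.3e-10). Serpina3g, a protease inhibitor gene of a cluster with near-identical members, had 26.7 and 29.1 FPKM at 10 h, against 0.333 and 0.427 FPKM in untreated cells. The change of Serpina3g came to 4.39 ± 0.12 in log2 (limma, adjusted p = 2.1e-09). Aifm3, a mitochondrial oxidoreductase gene, was listed at 0 in both untreated libraries and had 3.78 and 3.27 FPKM at 10 h (limma adjusted p = 1.2e-07). Also listed at 0 in both untreated libraries and called higher were Ccl17, a chemokine for T helper cells, with 0.916 and 0.826 FPKM at 10 h, Aldh1a2, an enzyme that makes retinoic acid, with 0.477 and 0.352 FPKM, and Ang2, a secreted ribonuclease gene of a family with near-identical members, with 0.863 and 1.09 FPKM (limma adjusted p = 0.005, 0.00772 and 0.00322). Ccl17 and Aldh1a2 stayed below 1 FPKM in all 4 compared libraries, so other groups brought them into the test. The call of Aldh1a2 was lost without 10 h replicate 1 (log2 change 0.43). Rpl34-ps1, listed as a ribosomal protein pseudogene, topped the list at 1111 and 947 FPKM at 10 h, against 0.0136 and 31 FPKM in untreated cells. Rpl34-ps1 changed by 7.49 ± 1.33 on the log2 scale (limma, adjusted p = 0.00128). Its untreated libraries differed more than 1000-fold from each other. Its parent gene Rpl34 had 28.2 and 173 FPKM at 10 h, against 999.6 and 697 FPKM in untreated cells. Reads may be shared between the parent gene and its pseudogene copies, so both values are uncertain.

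**Figure D2:**
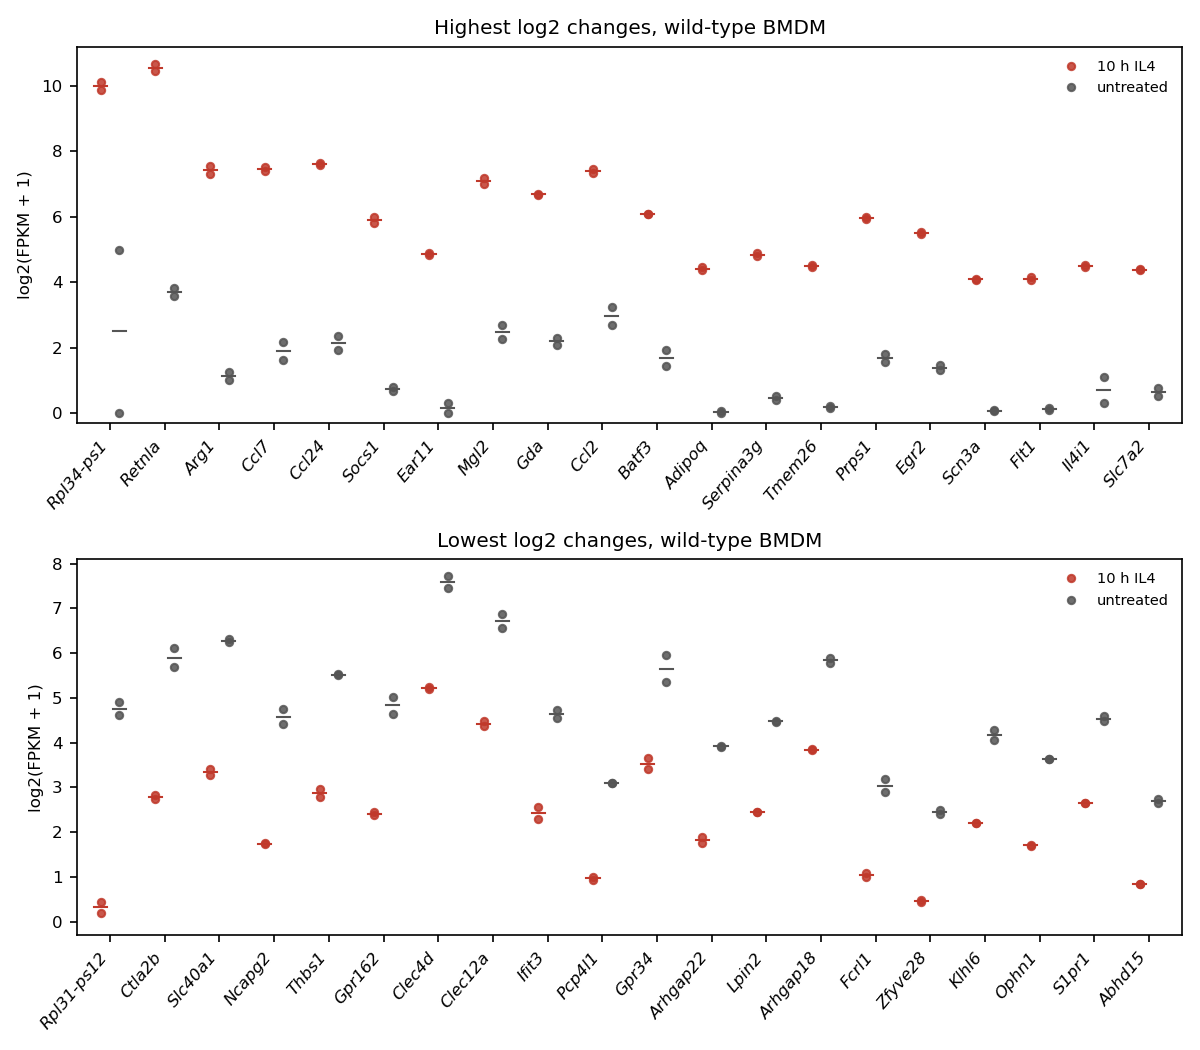
Values of each library as log2(FPKM + 1) for the 20 highest (top) and 20 lowest (bottom) log2 changes among called genes with names; red points are the 2 libraries at 10 h, grey points the 2 untreated libraries, and bars the mean of each pair. The 40 genes were chosen among those whose pairs do not overlap, and the untreated pair is widest for Rpl34-ps1.

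STAT6 is known to bind palindromes of TTC and GAA spaced by 4 bases, and other STAT factors the same palindrome spaced by 3. Promoter sequences of 250 bases before and 50 after the start of transcription were read from RefSeq (GRCm38.p6) and searched for TTCNNNNGAA and TTCNNNGAA, which read the same on both strands and cannot overlap as a single site. Of the 20 highest risers, 13 matched an entry, and 2 of them, Retnla and Tmem26, held TTCNNNNGAA, while 2, Batf3 and Serpina3g, held TTCNNNGAA. Of all 27025 promoters in the table, 6.99% held the first motif and 8.47% the second. A comparison of called with other genes was void, because only 79.9% of tested genes had an entry and 80% were required. The sequences of 3 of these risers are shown from 5′ to 3′ because they carry the motif in a gene that ranked among the 20 highest changes, with the motif in capitals.
Retnla, chr16:48842359-48842658, plus strand: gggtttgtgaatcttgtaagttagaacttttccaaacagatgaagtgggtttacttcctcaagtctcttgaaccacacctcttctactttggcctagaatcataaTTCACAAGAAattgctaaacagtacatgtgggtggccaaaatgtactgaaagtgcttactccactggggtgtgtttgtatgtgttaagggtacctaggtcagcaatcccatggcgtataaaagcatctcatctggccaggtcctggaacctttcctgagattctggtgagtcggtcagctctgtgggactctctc
Tmem26, chr10:68723496-68723795, plus strand: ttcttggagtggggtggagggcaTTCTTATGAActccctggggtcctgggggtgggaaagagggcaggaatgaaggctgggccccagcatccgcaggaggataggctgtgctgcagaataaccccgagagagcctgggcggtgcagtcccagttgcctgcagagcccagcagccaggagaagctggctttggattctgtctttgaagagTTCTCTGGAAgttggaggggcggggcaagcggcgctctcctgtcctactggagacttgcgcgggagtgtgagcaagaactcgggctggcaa
Batf3, chr1:191098164-191098463, plus strand: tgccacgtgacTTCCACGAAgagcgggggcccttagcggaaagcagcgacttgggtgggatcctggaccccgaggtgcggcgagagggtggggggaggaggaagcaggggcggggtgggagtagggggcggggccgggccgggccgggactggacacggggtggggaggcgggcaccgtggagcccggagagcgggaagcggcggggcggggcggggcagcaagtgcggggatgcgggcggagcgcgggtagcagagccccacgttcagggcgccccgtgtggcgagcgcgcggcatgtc
In Retnla the motif began at −145 relative to the start, and in Tmem26 at −227 and −41. These matches describe letters in a window and do not show binding.

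Among the components of the IL4 receptor pathway, the largest changes were those of the feedback inhibitors Socs1, Socs2 and Cish. Not all inhibitors rose: Socs3 (−0.20 ± 0.12, limma adjusted p = 0.212), Socs4, Socs6, Socs7, the phosphatase genes Ptpn6 and Ptpn11 and all 4 Pias genes did not pass on the deposited values, though Socs3 passed as lower with median-of-ratios factors and Socs6 and Ptpn6 after quantile normalization. The phosphatase gene Ptpn1 did not pass on the deposited values either (0.35 ± 0.13, limma adjusted p = 0.0535). Socs5 rose (0.43 ± 0.12, limma adjusted p = 0.0176). Socs1, which blocks Janus kinases, had 54.7 and 62.8 FPKM at 10 h, against 0.585 and 0.735 FPKM in untreated cells. Socs1 had a log2 change of 5.17 ± 0.22 (limma, adjusted p = 6.3e-08). Cish, of the same family, had 3.62 and 4.15 FPKM at 10 h, against 0.0562 and 0.111 FPKM in untreated cells. For Cish this was a log2 change of 2.17 ± 0.17 (limma, adjusted p = 4.9e-06). Socs2 had 7.19 and 7.26 FPKM at 10 h, against 0.421 and 0.234 FPKM in untreated cells. The change of Socs2 came to 2.64 ± 0.10 in log2 (limma, adjusted p = 3.1e-08). Ptpn2, a phosphatase of STAT and Janus kinase proteins, was higher as well, at 24.5 and 25.2 FPKM at 10 h, against 9.56 and 7.86 FPKM in untreated cells. Ptpn2 changed by 1.42 ± 0.18 on the log2 scale (limma, adjusted p = 1.3e-04). So was the kinase gene Jak2, at 23.6 and 22.9 FPKM at 10 h, against 9.09 and 8.23 FPKM in untreated cells. Jak2 had a log2 change of 1.33 ± 0.09 (limma, adjusted p = 2.8e-06). The receptor alpha chain, its transcription factor and Jak1 did not pass the test on the deposited values. Il4ra had 40.0 and 42.5 FPKM at 10 h, against 37.8 and 28.7 FPKM in untreated cells. The change of Il4ra was 0.32 ± 0.17 in log2, which did not pass the test (limma, adjusted p = 0.162). Stat6 had 37.9 and 37.8 FPKM at 10 h, against 44.5 and 35.3 FPKM in untreated cells. The change of Stat6 was −0.07 ± 0.13 in log2, which did not pass the test (limma, adjusted p = 0.701). Jak1, which sits on the receptor alpha chain, had 33.5 and 34.4 FPKM at 10 h, against 33.7 and 36.9 FPKM in untreated cells. The change of Jak1 was −0.05 ± 0.09 in log2, which did not pass the test (limma, adjusted p = 0.65). Il2rg, the common gamma chain that completes the type I receptor, was higher, at 23 and 19.7 FPKM at 10 h, against 13.4 and 16.6 FPKM in untreated cells. Il2rg had a log2 change of 0.48 ± 0.12 (limma, adjusted p = 0.0107). Il13ra1, the chain that completes the type II receptor, was lower, at 0.754 and 0.669 FPKM at 10 h, against 4.93 and 3.91 FPKM in untreated cells. For Il13ra1 this was a log2 change of −1.66 ± 0.13 (limma, adjusted p = 4.4e-06). The call of Il2rg was lost after quantile normalization (limma, adjusted p = 0.13), with only the 4 libraries in the fit and without replicate 1 of either group. Quantile normalization also made Stat6 (−0.35, limma adjusted p = 0.0043) and Jak1 (−0.35, limma adjusted p = 0.0297) pass as lower. Inpp5d, the lipid phosphatase SHIP1, was lower, at 19.7 and 20.4 FPKM at 10 h, against 48 and 43 FPKM in untreated cells. The change of Inpp5d came to −1.14 ± 0.10 in log2 (limma, adjusted p = 1.1e-05). In all, 9 of 35 tested components rose, 2 fell and 24 did not pass, with a median of 0.03 on the deposited values, −0.07 with median-of-ratios factors and −0.11 after quantile normalization. After quantile normalization 11 components were lower and 8 higher. Without 10 h replicate 1 the risers were 5, and without 10 h replicate 2 they were 6.

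Nuclear factors of alternative activation rose in 14 of 22 cases and fell in 3, with a median of 1.07. With 1 FPKM required in every library, 10 of 17 rose and 3 fell, with a median of 0.56. Without 10 h replicate 2, 13 of the 22 rose and 1 fell. Egr2, a zinc finger factor that acts downstream of STAT6, had 45.5 and 43.2 FPKM at 10 h, against 1.76 and 1.5 FPKM in untreated cells. Egr2 changed by 4.11 ± 0.10 on the log2 scale (limma, adjusted p = 1.5e-09). Batf3, a partner of AP-1 proteins best known from dendritic cells, had 67.4 and 66.4 FPKM at 10 h, against 2.79 and 1.74 FPKM in untreated cells. Batf3 had a log2 change of 4.40 ± 0.21 (limma, adjusted p = 1.5e-07). Irf4, which is needed for this activation state in mouse macrophages, had 20.6 and 20.3 FPKM at 10 h, against 1.31 and 1.27 FPKM in untreated cells. For Irf4 this was a log2 change of 3.23 ± 0.09 (limma, adjusted p = 2.1e-09). For each of these 3 genes the lower 10 h library was more than 10-fold above the higher untreated one. Nfil3 (3.07 ± 0.10) and Klf4 (2.47 ± 0.10) followed (limma adjusted p = 8.2e-09 and 3.5e-08). Pparg, the nuclear receptor of fatty acids, was present before treatment and had 47 and 42.1 FPKM at 10 h, against 18.5 and 21.8 FPKM in untreated cells. The change of Pparg came to 1.11 ± 0.13 in log2 (limma, adjusted p = 6.7e-05). Its coactivator Ppargc1b had 1.97 and 2.18 FPKM at 10 h, against 0.229 and 0.387 FPKM in untreated cells. Ppargc1b changed by 1.23 ± 0.13 on the log2 scale (limma, adjusted p = 3.9e-05).

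CC chemokines, which attract monocytes, eosinophils and T cells, were higher in 9 of 12 cases and lower in none, with a median of 1.42, while CXC chemokines were higher in none of 5 and lower in 3. Ccl24, an attractant of eosinophils, had 200.1 and 192 FPKM at 10 h, against 4.17 and 2.82 FPKM in untreated cells. Ccl24 had a log2 change of 5.47 ± 0.15 (limma, adjusted p = 2.2e-09). The monocyte attractants Ccl7 and Ccl2 had 183 and 169.6 FPKM and 177 and 161 FPKM at 10 h, against 2.07 and 3.5 FPKM and 8.46 and 5.44 FPKM in untreated cells (5.57 ± 0.16 and 4.45 ± 0.18, limma adjusted p = 3.5e-09 and 3.5e-08). Ccl8 had 125 and 119 FPKM at 10 h, against 13.4 and 11.7 FPKM in untreated cells. For Ccl8 this was a log2 change of 3.18 ± 0.12 (limma, adjusted p = 2.9e-08). At 24 h these genes had parted, with 64.2 and 65.8 FPKM of Ccl7 and 98 and 103 FPKM of Ccl2, below the 10 h libraries, and 295 and 331 FPKM of Ccl8, above them. Of the CXC chemokines, Cxcl10, an attractant of T cells induced by interferon, had 1.23 and 2.13 FPKM at 10 h, against 4.85 and 5.3 FPKM in untreated cells. The change of Cxcl10 came to −1.20 ± 0.18 in log2 (limma, adjusted p = 3.9e-04). Cxcl16, a membrane-bound ligand, had 12.3 and 10.9 FPKM at 10 h, against 27.6 and 25.1 FPKM in untreated cells. Cxcl16 changed by −1.12 ± 0.12 on the log2 scale (limma, adjusted p = 4.8e-05). Fitting only the 4 libraries lowered the count of falling CXC chemokines to 2, and quantile normalization raised it to 4. The median change of the CXC chemokines was −0.61, and −0.90 to −0.33 over single omissions. Among 8 chemokine receptor genes, 1 rose and 3 fell. Cxcr4 had 64.9 and 63.3 FPKM at 10 h, against 149.9 and 124 FPKM in untreated cells. Cxcr4 had a log2 change of −1.07 ± 0.13 (limma, adjusted p = 1.3e-04). Ccr2, the receptor of Ccl2 and Ccl7, had 5.26 and 5.51 FPKM at 10 h, against 12.9 and 10.5 FPKM in untreated cells (log2 change −0.99 ± 0.15, limma adjusted p = 4.5e-04), so the receptor and its ligands moved in opposite directions.

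The lowest changes included an iron exporter, lectin receptors and adhesive proteins. Slc40a1, encoding ferroportin, the exporter of iron, had 8.73 and 9.7 FPKM at 10 h, against 78.3 and 74.5 FPKM in untreated cells. For Slc40a1 this was a log2 change of −2.92 ± 0.10 (limma, adjusted p = 1.1e-08). Thbs1, the matrix protein thrombospondin 1, had 5.91 and 6.8 FPKM at 10 h, against 44.5 and 45 FPKM in untreated cells. The change of Thbs1 came to −2.64 ± 0.11 in log2 (limma, adjusted p = 6.6e-08). Clec4d and Clec12a, C-type lectin receptors of microbial and damage products, had 35.9 and 37.1 FPKM and 19.7 and 21.3 FPKM at 10 h, against 209.8 and 174 FPKM and 117 and 93.4 FPKM in untreated cells (−2.36 ± 0.13 and −2.29 ± 0.15, limma adjusted p = 4.6e-07 and 1.4e-06). All 4 genes were above 70 FPKM in both untreated libraries except Thbs1, which was above 40 FPKM. Gpr34, a receptor of lysophosphatidylserine, had 9.62 and 11.6 FPKM at 10 h, against 60.7 and 39.8 FPKM in untreated cells. Gpr34 changed by −2.12 ± 0.18 on the log2 scale (limma, adjusted p = 1.2e-05). S1pr1, a receptor of sphingosine 1-phosphate, had 5.31 and 5.28 FPKM at 10 h, against 23.1 and 21.2 FPKM in untreated cells. S1pr1 had a log2 change of −1.88 ± 0.09 (limma, adjusted p = 1.0e-07). Ncapg2, a subunit of the condensin II complex, had 2.33 and 2.39 FPKM at 10 h, against 25.8 and 20.2 FPKM in untreated cells. For Ncapg2 this was a log2 change of −2.83 ± 0.12 (limma, adjusted p = 6.3e-08). Ctla2b, a protease inhibitor gene with a near-identical neighbour, had 5.67 and 6.13 FPKM at 10 h, against 68.3 and 50.5 FPKM in untreated cells. The change of Ctla2b came to −3.11 ± 0.17 in log2 (limma, adjusted p = 4.8e-07). Lpin2, a phosphatidate phosphatase, had 4.5 and 4.43 FPKM at 10 h, against 21.1 and 21.3 FPKM in untreated cells. Lpin2 changed by −2.02 ± 0.09 on the log2 scale (limma, adjusted p = 8.0e-08). Itga6, an integrin subunit that binds laminin, had 14.4 and 13.9 FPKM at 10 h, against 49.2 and 47.8 FPKM in untreated cells. Itga6 had a log2 change of −1.71 ± 0.08 (limma, adjusted p = 1.5e-07).

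Sensors of bacteria and of complement were among the genes that fell. Cd14, the lipopolysaccharide co-receptor, had 33.6 and 34.7 FPKM at 10 h, against 129.8 and 116 FPKM in untreated cells. For Cd14 this was a log2 change of −1.82 ± 0.12 (limma, adjusted p = 2.1e-06). Tlr2, a receptor of bacterial lipoproteins, had 14.2 and 14.4 FPKM at 10 h, against 50.6 and 39.8 FPKM in untreated cells. The change of Tlr2 came to −1.59 ± 0.11 in log2 (limma, adjusted p = 3.2e-06). C5ar1, a receptor of the complement fragment C5a, had 16.7 and 14.8 FPKM at 10 h, against 46.2 and 55.9 FPKM in untreated cells. C5ar1 changed by −1.63 ± 0.16 on the log2 scale (limma, adjusted p = 2.7e-05). Tlr13, a receptor of bacterial ribosomal RNA, also fell, at 20.4 and 18.1 FPKM at 10 h, against 50.6 and 44.2 FPKM in untreated cells. Tlr13 had a log2 change of −1.26 ± 0.12 (limma, adjusted p = 2.2e-05). Tlr1, in contrast, rose, at 22.4 and 22.3 FPKM at 10 h, against 11.3 and 11.9 FPKM in untreated cells. For Tlr1 this was a log2 change of 0.89 ± 0.10 (limma, adjusted p = 6.0e-05). The Toll-like receptor pathway as a list did not move one way: 5 of 21 genes rose and 6 fell, with a median of 0.04 that became −0.06 with median-of-ratios factors and −0.13 after quantile normalization. Of 13 complement genes, 2 rose and 4 fell (5 and 3 without untreated replicate 1), C3 being a riser at 19.2 and 17.3 FPKM at 10 h, against 4.83 and 5.39 FPKM in untreated cells. The change of C3 came to 1.66 ± 0.12 in log2 (limma, adjusted p = 2.5e-06). Of 11 purinergic and lysophospholipid signalling genes, 2 rose and 6 fell. The ADP receptor gene P2ry1 had 24.5 and 23.3 FPKM at 10 h, against 1.83 and 2.51 FPKM in untreated cells. P2ry1 changed by 2.98 ± 0.11 on the log2 scale (limma, adjusted p = 1.8e-08). Entpd1, the ectonucleotidase CD39, had 30.0 and 29.9 FPKM at 10 h, against 77.3 and 60.5 FPKM in untreated cells. Entpd1 had a log2 change of −1.17 ± 0.11 (limma, adjusted p = 2.4e-05). Of 7 Fc receptor genes, 2 rose and 2 fell, against 28.2% higher and 14.2% lower among all tested genes. The inhibitory Fcgr2b rose, at 264 and 279 FPKM at 10 h, against 149 and 137 FPKM in untreated cells. For Fcgr2b this was a log2 change of 0.92 ± 0.11 (limma, adjusted p = 1.1e-04). The high-affinity Fcgr1 fell, at 34.8 and 33.8 FPKM at 10 h, against 64 and 52.9 FPKM in untreated cells. The change of Fcgr1 came to −0.74 ± 0.14 in log2 (limma, adjusted p = 0.00186). Of 20 scavenger and efferocytosis genes, 3 rose and 8 fell, with Cd93 at 53.4 and 52.5 FPKM at 10 h, against 132 and 109 FPKM in untreated cells. Cd93 changed by −1.16 ± 0.11 on the log2 scale (limma, adjusted p = 2.1e-05).

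Inflammatory and interferon genes were mixed. Of 28 genes of inflammatory cytokines and NF-kB regulation, 8 rose and 9 fell. The risers included inhibitors of NF-kB signalling. Tnip3 had 23.3 and 21.6 FPKM at 10 h, against 2.66 and 2.89 FPKM in untreated cells. Tnip3 had a log2 change of 2.64 ± 0.14 (limma, adjusted p = 4.3e-07). Tnfaip3, the ubiquitin-editing protein A20, had 8.68 and 8.51 FPKM at 10 h, against 3.47 and 3.48 FPKM in untreated cells. For Tnfaip3 this was a log2 change of 1.10 ± 0.10 (limma, adjusted p = 1.9e-05). Csf1, the gene of M-CSF itself, had 4.13 and 3.67 FPKM at 10 h, against 1.1 and 0.882 FPKM in untreated cells. The change of Csf1 came to 1.30 ± 0.11 in log2 (limma, adjusted p = 8.3e-06). Nfkbiz, a nuclear cofactor of NF-kB, fell, at 0.899 and 1.38 FPKM at 10 h, against 4.39 and 5.27 FPKM in untreated cells. Nfkbiz changed by −1.45 ± 0.14 on the log2 scale (limma, adjusted p = 2.4e-05). Of 47 interferon response genes, 4 rose, 11 fell and 32 did not pass, with a median of −0.26. Ifit3 had 3.89 and 4.92 FPKM at 10 h, against 25.7 and 22.4 FPKM in untreated cells. Ifit3 had a log2 change of −2.21 ± 0.33 (limma, adjusted p = 3.8e-04). Irf1 rose, at 83.9 and 81.9 FPKM at 10 h, against 36.8 and 30.2 FPKM in untreated cells. For Irf1 this was a log2 change of 1.29 ± 0.12 (limma, adjusted p = 2.0e-05). Gbp2, a guanylate-binding protein of the same response, rose, at 23.4 and 25.7 FPKM at 10 h, against 14.7 and 13.7 FPKM in untreated cells. The change of Gbp2 came to 0.75 ± 0.13 in log2 (limma, adjusted p = 0.00125). The count of falling interferon genes ranged with the setting, with 17 under median-of-ratios factors, 18 after quantile normalization, 6 without untreated replicate 2 and 7 without 10 h replicate 1.

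Genes that build ribosomes rose nearly as a whole. Of 39 ribosome biogenesis genes, 38 rose and none fell, with a median of 0.85 against 0.09 for all tested genes. Ddx21, a helicase of ribosomal RNA processing, had 30.6 and 29.9 FPKM at 10 h, against 11.4 and 11.1 FPKM in untreated cells. Ddx21 changed by 1.35 ± 0.09 on the log2 scale (limma, adjusted p = 1.6e-06). Tsr1, a maturation factor of the small subunit, had 13 and 10.9 FPKM at 10 h, against 3.44 and 3.09 FPKM in untreated cells. Tsr1 had a log2 change of 1.60 ± 0.11 (limma, adjusted p = 1.6e-06). Dkc1, the pseudouridine synthase dyskerin, had 9.47 and 10.1 FPKM at 10 h, against 3.06 and 2.69 FPKM in untreated cells. For Dkc1 this was a log2 change of 1.48 ± 0.10 (limma, adjusted p = 2.6e-06). At 24 h the same list was lower than at 10 h in 26 cases and higher in 1, and Ddx21 had 18.5 and 17.3 FPKM. Among all tested genes 14.3% were lower and 11.6% higher at 24 h than at 10 h, the background for later list counts at 24 h. Enzymes of nucleotide, one-carbon and polyamine synthesis rose in 22 of 28 cases and fell in none, with a median of 0.82. Prps1, which makes the sugar phosphate that nucleotides are built on, had 63.2 and 59.9 FPKM at 10 h, against 2.51 and 1.94 FPKM in untreated cells. The change of Prps1 came to 4.28 ± 0.10 in log2 (limma, adjusted p = 9.8e-10). Its reads may be shared with close paralogs. Atic, a purine synthesis enzyme, had 36.4 and 36.1 FPKM at 10 h, against 10.4 and 7.76 FPKM in untreated cells. Atic changed by 1.90 ± 0.12 on the log2 scale (limma, adjusted p = 1.1e-06). Odc1, which turns ornithine, the product of arginase, into putrescine, had 25.4 and 24.3 FPKM at 10 h, against 7.48 and 6.62 FPKM in untreated cells. Odc1 had a log2 change of 1.68 ± 0.09 (limma, adjusted p = 4.6e-07). Of 20 tRNA synthetase genes, 16 rose and none fell, with a median of 0.43, although only 8 to 10 passed when a 10 h library or untreated replicate 2 was left out. Of 21 genes of the ATF4 and amino acid response, 16 rose and 3 fell. The serine synthesis gene Psat1 had 12.4 and 11.9 FPKM at 10 h, against 3.25 and 2.12 FPKM in untreated cells. For Psat1 this was a log2 change of 1.85 ± 0.14 (limma, adjusted p = 4.3e-06). The stress factor Atf3 had 229.8 and 206 FPKM at 10 h, against 64.7 and 52.3 FPKM in untreated cells. The change of Atf3 came to 1.89 ± 0.13 in log2 (limma, adjusted p = 2.3e-06). Pck2, a mitochondrial carboxykinase, fell, at 2.41 and 2.41 FPKM at 10 h, against 10.7 and 8.45 FPKM in untreated cells. Pck2 changed by −1.62 ± 0.13 on the log2 scale (limma, adjusted p = 4.9e-06).

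Chaperones and folding enzymes of the endoplasmic reticulum rose in 24 of 33 cases and fell in 2 (21 and none without 10 h replicate 1), with a median of 0.77. Pdia4, a disulfide isomerase, had 167 and 159 FPKM at 10 h, against 39.4 and 30.5 FPKM in untreated cells. Pdia4 had a log2 change of 2.20 ± 0.12 (limma, adjusted p = 4.6e-07). Hyou1, a large chaperone, had 28.8 and 27.2 FPKM at 10 h, against 12.1 and 10.6 FPKM in untreated cells. For Hyou1 this was a log2 change of 1.23 ± 0.11 (limma, adjusted p = 1.4e-05). Oxidative phosphorylation genes rose in 41 of 42 cases, with a median of 0.85. Atp5b, the catalytic subunit of ATP synthase, had 433 and 407 FPKM at 10 h, against 191 and 152 FPKM in untreated cells. The change of Atp5b came to 1.29 ± 0.14 in log2 (limma, adjusted p = 5.8e-05). Cox6a1, a subunit of cytochrome oxidase, had 176 and 171 FPKM at 10 h, against 77.8 and 68.7 FPKM in untreated cells. Cox6a1 changed by 1.23 ± 0.12 on the log2 scale (limma, adjusted p = 2.3e-05). Proteasome genes rose in 22 of 31 cases with a median of 0.47, and enzymes of the tricarboxylic acid cycle and its neighbours in 20 of 30 with a median of 0.47. Idh3a, a subunit of isocitrate dehydrogenase, had 11.6 and 12.8 FPKM at 10 h, against 4.23 and 3.75 FPKM in untreated cells. Idh3a had a log2 change of 1.40 ± 0.11 (limma, adjusted p = 4.7e-06).

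Gene length and 1 library moved with these lists. The median change was lower in longer genes by their span in RefSeq, with 0.23 in the shortest 20% of tested genes, where the median span was 3.8 kb, and −0.08 in the longest 20%, where it was 101.7 kb. Ribosomal protein genes, which are short at a median of 3.2 kb, had a median change of 0.41, and the oxidative phosphorylation genes had a median span of 7.1 kb. Untreated replicate 2 was lower than untreated replicate 1 by a median of 0.37 in oxidative phosphorylation genes and 0.33 in proteasome genes, against 0.14 for all genes, whereas the 10 h replicates differed by a median of 0.04 and 0.07 in those lists. Without untreated replicate 2 the risers were 32 of 42 in oxidative phosphorylation, 13 of 31 in the proteasome, 16 of 30 in the tricarboxylic acid cycle and 36 of 39 in ribosome biogenesis, none of these lists having a member that fell. Without 10 h replicate 1 the proteasome had 10 risers. After quantile normalization they were 35, 10, 15 and 36, with medians of 0.52, 0.13, 0.25 and 0.73. The part of gene length in these changes was not tested.

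**Figure D3:**
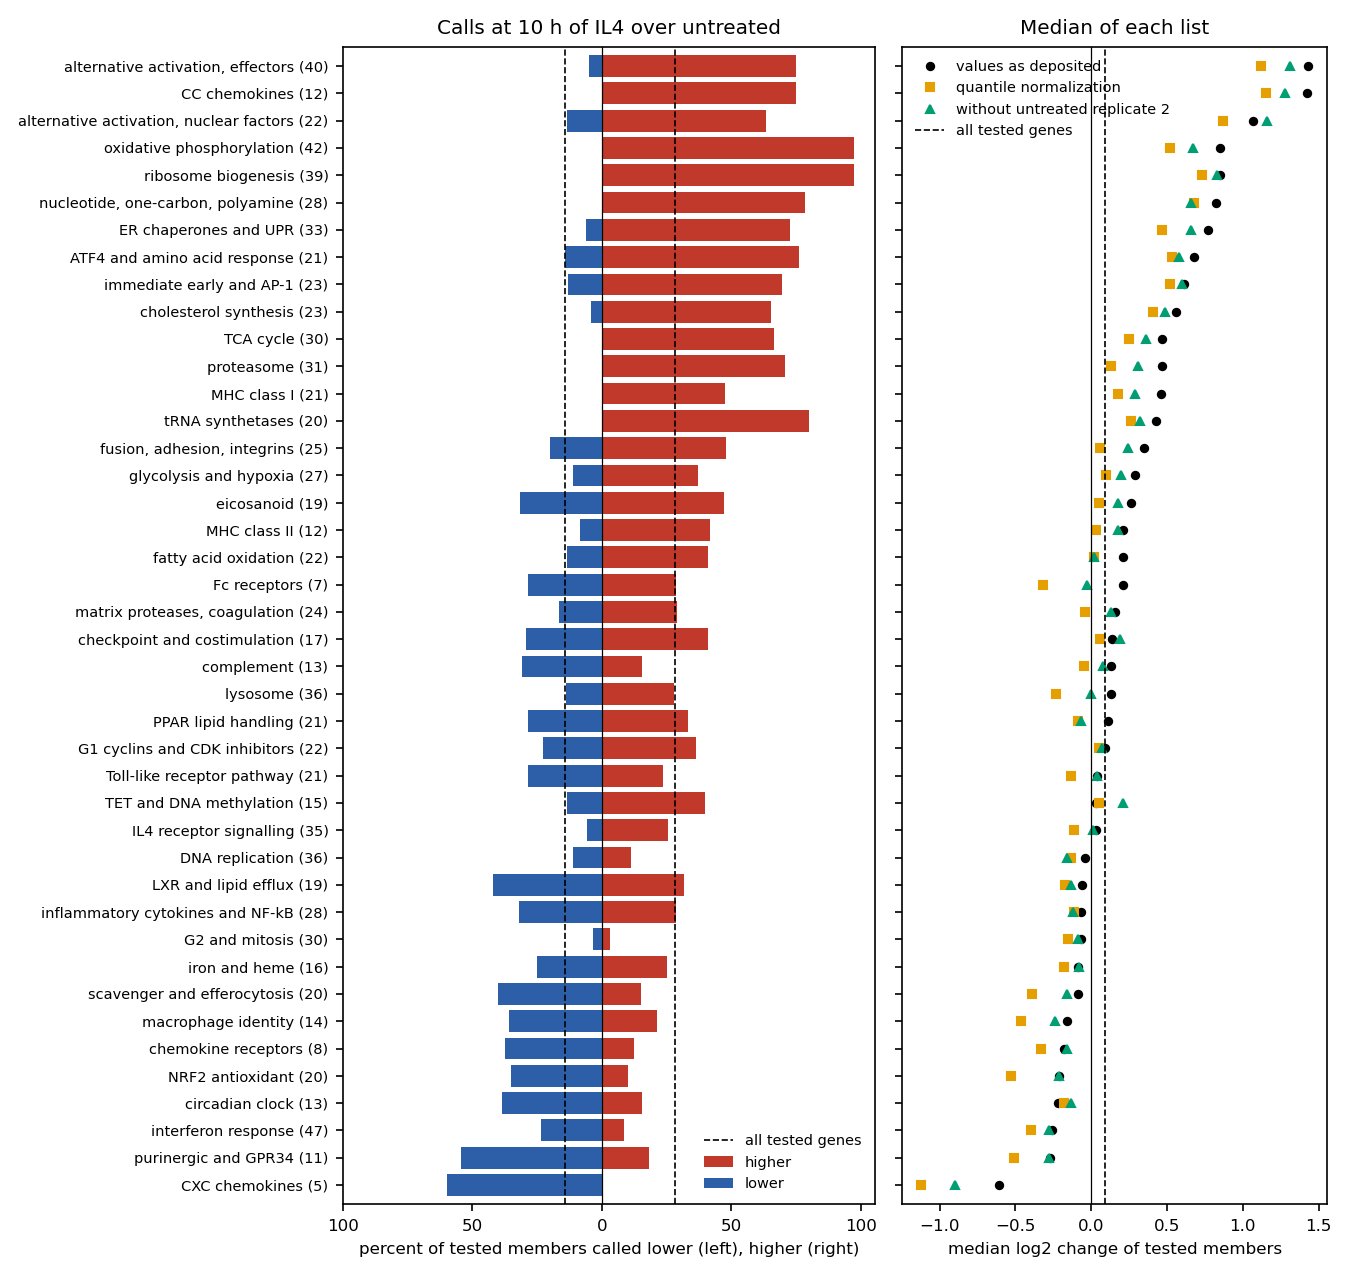
Left: percent of tested members (number in brackets) of each list called lower (blue, to the left) or higher (red, to the right) at 10 h of IL4 over untreated; dashed lines mark the percents of all tested genes, 14.2% and 28.2%. Right: the median log2 change of each list on the deposited values (circles), after quantile normalization (squares) and without untreated replicate 2 (triangles), where the dashed line is the median of all tested genes at 0.09; medians of most lists with many risers shrink under both alternatives and remain above 0.

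Lipid genes split by pathway. Cholesterol synthesis genes rose in 15 of 23 cases and fell in 1, with a median of 0.56. Cyp51, a demethylase of lanosterol, had 12.6 and 14.2 FPKM at 10 h, against 4.74 and 4.28 FPKM in untreated cells. For Cyp51 this was a log2 change of 1.38 ± 0.09 (limma, adjusted p = 1.6e-06). Sqle, the squalene oxidase, had 12.3 and 13.6 FPKM at 10 h, against 4.52 and 4.52 FPKM in untreated cells. The change of Sqle came to 1.33 ± 0.11 in log2 (limma, adjusted p = 7.1e-06). At 24 h, 18 of the 23 were higher than at 10 h and none lower, and Cyp51 had 24.7 and 24.2 FPKM. Genes of cholesterol efflux and its receptor LXR rose in 6 of 19 cases and fell in 8, or in 5 with either 10 h library left out. The 2 main sterol exporters went opposite ways. Abca1 had 26.7 and 25 FPKM at 10 h, against 69.5 and 74.1 FPKM in untreated cells. Abca1 changed by −1.44 ± 0.10 on the log2 scale (limma, adjusted p = 1.8e-06). Abcg1 had 73.3 and 68.8 FPKM at 10 h, against 26.6 and 25.5 FPKM in untreated cells. Abcg1 had a log2 change of 1.41 ± 0.12 (limma, adjusted p = 7.4e-06). Of 21 genes of PPAR-linked lipid handling, 7 rose and 6 fell, but 4 and 4 without 10 h replicate 1. Lpl, the lipase that frees fatty acids from lipoproteins, had 385 and 382 FPKM at 10 h, against 137 and 147 FPKM in untreated cells. For Lpl this was a log2 change of 1.42 ± 0.15 (limma, adjusted p = 4.2e-05). Angptl4, an inhibitor of that lipase, had 2.82 and 2.31 FPKM at 10 h, against 10.9 and 8.99 FPKM in untreated cells. The change of Angptl4 came to −1.61 ± 0.13 in log2 (limma, adjusted p = 5.4e-06). Fatty acid oxidation genes rose in 9 of 22 cases and fell in 3, a count that was 5 and 2 with either 10 h library left out, 6 and 2 without untreated replicate 2 and 5 and 6 after quantile normalization. Glycolysis and hypoxia genes had 10 risers and 3 fallers in 27, and 1 faller when a 10 h library or untreated replicate 2 was left out. The glucose transporter gene Slc2a1 had 12.5 and 10.2 FPKM at 10 h, against 4.54 and 3.99 FPKM in untreated cells. Slc2a1 changed by 1.23 ± 0.17 on the log2 scale (limma, adjusted p = 2.5e-04). Pgk1, phosphoglycerate kinase, had 216 and 191 FPKM at 10 h, against 90.1 and 72.1 FPKM in untreated cells. Pgk1 had a log2 change of 1.32 ± 0.13 (limma, adjusted p = 2.2e-05). Ndrg1, a hypoxia-induced gene, had 5.48 and 5.59 FPKM at 10 h, against 12.6 and 10.9 FPKM in untreated cells. For Ndrg1 this was a log2 change of −0.96 ± 0.12 (limma, adjusted p = 1.3e-04).

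Iron genes did not all change one way. Tfrc, the receptor that takes up transferrin-bound iron, had 377 and 366 FPKM at 10 h, against 43.6 and 36.2 FPKM in untreated cells. The change of Tfrc came to 3.19 ± 0.11 in log2 (limma, adjusted p = 1.0e-08). Fth1, the heavy chain of the iron store ferritin, had 867 and 926 FPKM at 10 h, against 2176 and 2566 FPKM in untreated cells. Fth1 changed by −1.40 ± 0.17 on the log2 scale (limma, adjusted p = 1.0e-04). With the fall of Slc40a1 given above, the importer was higher while the store and the exporter were lower. In the whole list of 16 iron and heme genes, 4 rose, 4 fell and 8 did not pass. Antioxidant genes of the NRF2 program rose in 2 of 20 cases and fell in 7. The fallers were 4 with only the 4 compared libraries in the fit, 10 with median-of-ratios factors and 12 after quantile normalization. Catalase, Cat, was among those that fell, at 26.9 and 30.2 FPKM at 10 h, against 75.1 and 75.8 FPKM in untreated cells. Cat had a log2 change of −1.37 ± 0.10 (limma, adjusted p = 3.3e-06). Gclm, a subunit of the enzyme of glutathione synthesis, was lower too, at 3.51 and 3.63 FPKM at 10 h, against 6.6 and 7.56 FPKM in untreated cells. For Gclm this was a log2 change of −0.82 ± 0.11 (limma, adjusted p = 2.7e-04).

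Most proliferation genes did not pass the test at 10 h. Of 30 G2 and mitosis genes, 1 rose, 1 fell and 28 did not pass, with a median of −0.07, and of 36 DNA replication genes 4 rose, 4 fell and 28 did not pass, with a median of −0.04. Under median-of-ratios factors the replication list had 3 risers and 12 fallers, and without untreated replicate 2 it had 1 and 7. Without 10 h replicate 1 it had 1 and 3, and without 10 h replicate 2 it had 2 and 3. Pcna, the sliding clamp, had 213 and 201 FPKM at 10 h, against 112 and 87.9 FPKM in untreated cells. The change of Pcna came to 1.05 ± 0.14 in log2 (limma, adjusted p = 1.8e-04). Cdt1, a licensing factor of replication origins, had 1.98 and 1.67 FPKM at 10 h, against 2.8 and 3.08 FPKM in untreated cells. Cdt1 changed by −0.48 ± 0.09 on the log2 scale (limma, adjusted p = 0.00184). Cell cycle regulators of G1 had 8 risers and 5 fallers in 22. Without 10 h replicate 2 these were 4 and 2, and without 10 h replicate 1 they were 5 and 3. The inhibitor gene Cdkn1a, encoding p21, had 17.6 and 15.5 FPKM at 10 h, against 4.32 and 5.85 FPKM in untreated cells. Cdkn1a had a log2 change of 1.54 ± 0.13 (limma, adjusted p = 1.1e-05). The inhibitor gene Cdkn1b, encoding p27, had 15.5 and 15.2 FPKM at 10 h, against 30.6 and 25 FPKM in untreated cells. For Cdkn1b this was a log2 change of −0.81 ± 0.11 (limma, adjusted p = 2.2e-04). Ccnd1, cyclin D1, had 5.86 and 5.25 FPKM at 10 h, against 2.49 and 1.98 FPKM in untreated cells. The change of Ccnd1 came to 1.02 ± 0.11 in log2 (limma, adjusted p = 5.9e-05). At 24 h, 26 of the 30 mitosis genes were higher than at 10 h and 1 lower, and 21 of the 36 replication genes were higher and none lower, against 11.6% higher and 14.3% lower among all tested genes.

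**Figure D4:**
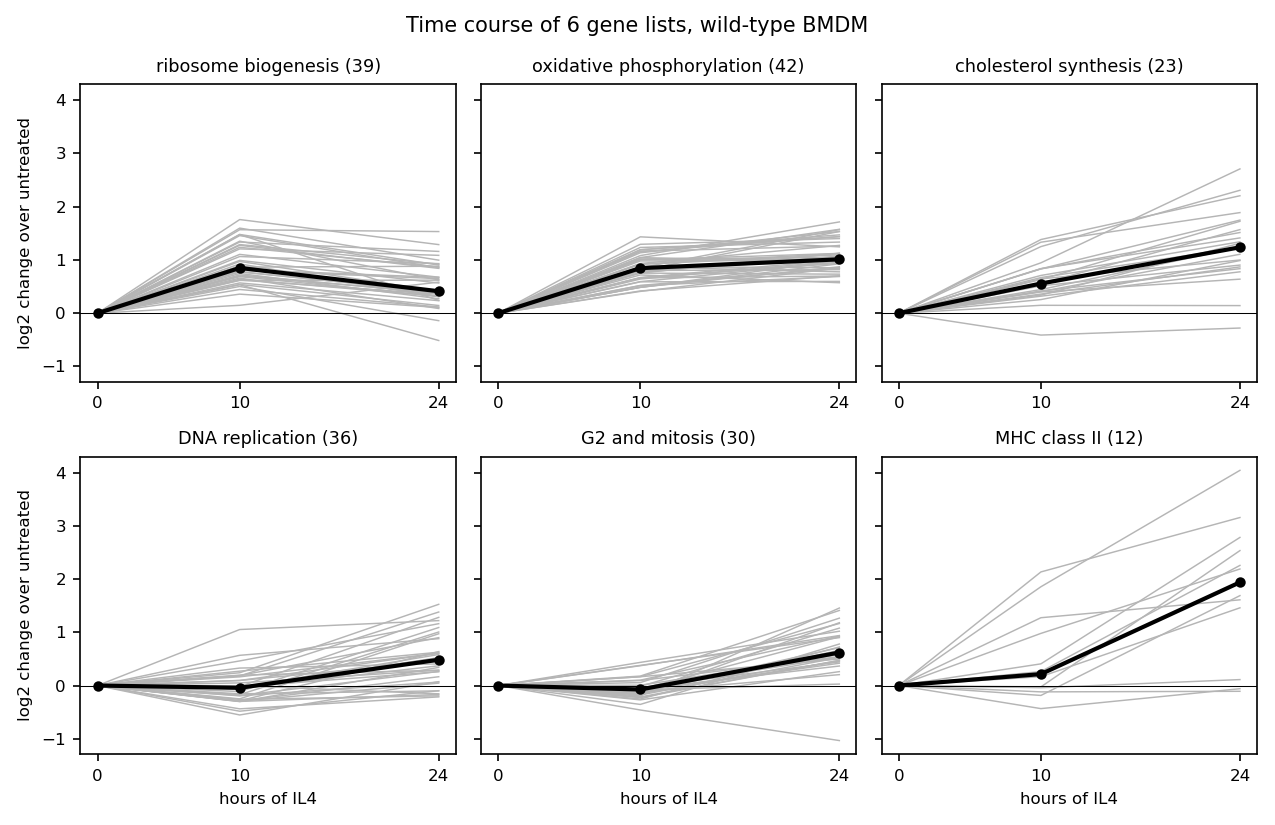
Each grey line is a tested gene of wild-type BMDM, with hours of IL4 on the x axis and the log2 change over untreated on the y axis, which is 0 at 0 h; the black line is the median of the list, with the number of genes in brackets. Ribosome biogenesis stands higher at 10 h than at 24 h, oxidative phosphorylation is raised at both, and DNA replication and mitosis lie near 0 at 10 h and above 0 at 24 h; both times share the untreated libraries.

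Of 12 genes of antigen presentation by MHC class II, 5 rose and 1 fell at 10 h, with a median of 0.21. With 1 FPKM required in every library, 3 of 10 rose and 1 fell. Their median was then 0.07, against 0.12 for all genes tested in that setting. Cd74, the invariant chain, had 132 and 111 FPKM at 10 h, against 32.9 and 32.5 FPKM in untreated cells. Cd74 changed by 1.86 ± 0.17 on the log2 scale (limma, adjusted p = 1.8e-05). It reached 458 and 671 FPKM at 24 h. H2-DMa, a chain of the peptide-loading complex, had 24.6 and 23.9 FPKM at 10 h, against 5.52 and 4.08 FPKM in untreated cells. H2-DMa had a log2 change of 2.13 ± 0.14 (limma, adjusted p = 2.0e-06). At 24 h, 8 of the 12 were higher than at 10 h and none lower. The 8 dendritic cell markers summed to 1.21 and 1.02 FPKM at 10 h, against 1.22 and 0.88 FPKM in untreated cells. Only 1 of these markers was tested. That marker rose at 10 h (log2 change 0.41) and was higher again at 24 h, but its call at 10 h was lost after quantile normalization (0.30). Of 21 MHC class I and peptide supply genes, 10 rose and none fell (6 rose without 10 h replicate 1), led by the immunoproteasome subunit Psmb10 at 191 and 186 FPKM at 10 h, against 42.9 and 32.9 FPKM in untreated cells (log2 change 2.30 ± 0.16, limma adjusted p = 2.5e-06), although reads of the class I genes themselves may be shared among near-identical copies. Costimulatory and checkpoint genes rose in 7 of 17 cases and fell in 5. With 1 FPKM required in every library, 5 of 11 rose and 2 fell. Pdcd1lg2, the ligand PD-L2, had 13.5 and 12.4 FPKM at 10 h, against 0.14 and 0.0307 FPKM in untreated cells. For Pdcd1lg2 this was a log2 change of 3.69 ± 0.12 (limma, adjusted p = 6.8e-09). Cd274, the ligand PD-L1, had 23.6 and 25.5 FPKM at 10 h, against 8.86 and 9.85 FPKM in untreated cells. The change of Cd274 came to 1.30 ± 0.09 in log2 (limma, adjusted p = 2.7e-06). Cd40 had 34.8 and 33 FPKM at 10 h, against 4.67 and 3.47 FPKM in untreated cells. Cd40 changed by 2.79 ± 0.14 on the log2 scale (limma, adjusted p = 2.5e-07). At 10 h both libraries of Pdcd1lg2 stood above the level of Cd274 in untreated cells.

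Genes of adhesion and fusion, coagulation proteases and lipid mediators also held large changes. Itgax, the integrin CD11c, had 11.1 and 9.17 FPKM at 10 h, against 0.277 and 0.15 FPKM in untreated cells. Itgax had a log2 change of 3.19 ± 0.14 (limma, adjusted p = 7.0e-08). At 24 h Itgax stood at 67.9 and 78.6 FPKM. Itgb3, the beta 3 integrin, had 7.67 and 7.05 FPKM at 10 h, against 1.13 and 0.922 FPKM in untreated cells. For Itgb3 this was a log2 change of 2.05 ± 0.12 (limma, adjusted p = 8.7e-07). In all, 12 of 25 adhesion and fusion genes rose and 5 fell. With 1 FPKM required in every library, 6 of 18 rose and 5 fell. F10, coagulation factor X, had 19.3 and 17.6 FPKM at 10 h, against 0.926 and 0.876 FPKM in untreated cells. The change of F10 came to 3.35 ± 0.10 in log2 (limma, adjusted p = 5.3e-09). F7, coagulation factor VII, had 2.47 and 1.88 FPKM at 10 h, against 0.0726 and 0.0716 FPKM in untreated cells. F7 changed by 1.56 ± 0.13 on the log2 scale (limma, adjusted p = 8.5e-06). In their list of 24 proteases and regulators, 7 genes rose and 4 fell (2 with either 10 h library left out), near the shares of all tested genes. Of 19 eicosanoid genes, 9 rose and 6 fell. Ptgs1, cyclooxygenase 1, had 113 and 111 FPKM at 10 h, against 10.9 and 9.27 FPKM in untreated cells. Ptgs1 had a log2 change of 3.36 ± 0.11 (limma, adjusted p = 6.4e-09). Ptgir, the prostacyclin receptor, had 12.6 and 12.5 FPKM at 10 h, against 1.21 and 1.2 FPKM in untreated cells. For Ptgir this was a log2 change of 2.62 ± 0.09 (limma, adjusted p = 1.5e-08). Hpgd, which degrades prostaglandins, had 19.5 and 21.3 FPKM at 10 h, against 75.1 and 68 FPKM in untreated cells. The change of Hpgd came to −1.76 ± 0.10 in log2 (limma, adjusted p = 6.6e-07). Lysosome genes rose in 10 of 36 cases and fell in 5, with a median of 0.13, shares close to the 28.2% and 14.2% of all tested genes. The fallers were 3 without 10 h replicate 1, 2 without 10 h replicate 2 and 19 after quantile normalization, where the median was −0.23. Atp6v0d2, a proton pump subunit linked to macrophage fusion, had 81.9 and 75.6 FPKM at 10 h, against 18.3 and 15.8 FPKM in untreated cells. Atp6v0d2 changed by 2.15 ± 0.12 on the log2 scale (limma, adjusted p = 5.6e-07). Dcstamp, which is needed for fusion of macrophages and osteoclasts, had 2.34 and 1.88 FPKM at 10 h, against 0.0883 and 0.116 FPKM in untreated cells. Dcstamp had a log2 change of 1.49 ± 0.17 (limma, adjusted p = 6.9e-05). Dcstamp had 28.6 and 34 FPKM at 24 h.

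Among immediate early and AP-1 genes, 16 of 23 rose and 3 fell, including the phosphatase gene Dusp4 at 15.5 and 13.7 FPKM at 10 h, against 1.07 and 1.51 FPKM in untreated cells. For Dusp4 this was a log2 change of 2.77 ± 0.12 (limma, adjusted p = 8.1e-08). Of 13 clock genes, 2 rose and 5 fell. Bhlhe40, which is also counted among the nuclear factors of alternative activation, had 9.91 and 9.65 FPKM at 10 h, against 1.36 and 1.27 FPKM in untreated cells. The change of Bhlhe40 came to 2.22 ± 0.10 in log2 (limma, adjusted p = 1.1e-07). Per3 had 1.13 and 1.14 FPKM at 10 h, against 2.69 and 2.88 FPKM in untreated cells. Per3 changed by −0.82 ± 0.10 on the log2 scale (limma, adjusted p = 1.3e-04). The hour of day at harvest is not given in the labels, so clock time and IL4 cannot be told apart for these genes. Of 15 genes of DNA methylation and its removal, 6 rose and 2 fell. The risers were 3 without 10 h replicate 2, and 4 without 10 h replicate 1 or without untreated replicate 2. Tet2, the dioxygenase named in the series, had 8.74 and 8.81 FPKM at 10 h, against 4.11 and 5.91 FPKM in untreated cells. Tet2 had a log2 change of 0.72 ± 0.13 (limma, adjusted p = 0.00161). Dnmt3a, a DNA methyltransferase, had 18.2 and 16.5 FPKM at 10 h, against 10.3 and 10.4 FPKM in untreated cells. For Dnmt3a this was a log2 change of 0.69 ± 0.10 (limma, adjusted p = 3.4e-04). Gadd45a, which has been linked to demethylation, had 5.49 and 4.2 FPKM at 10 h, against 16.2 and 12.4 FPKM in untreated cells. The change of Gadd45a came to −1.38 ± 0.14 in log2 (limma, adjusted p = 3.2e-05).

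Genes of macrophage identity rose in 3 of 14 cases and fell in 5. After quantile normalization 2 rose and 9 fell, and with only the 4 libraries in the fit 1 rose and 4 fell. Mertk, a receptor for dead cells, had 21.4 and 19.9 FPKM at 10 h, against 36.7 and 34.4 FPKM in untreated cells. Mertk changed by −0.75 ± 0.09 on the log2 scale (limma, adjusted p = 9.1e-05). The most abundant message of the list, Lyz2 of lysozyme, had 8614 and 8707 FPKM at 10 h, against 18003 and 13803 FPKM in untreated cells. Lyz2 had a log2 change of −0.86 ± 0.18 (limma, adjusted p = 0.00364). That was the largest loss of FPKM among called genes other than small RNAs and numbered gene models. Quantile normalization gave Lyz2 a change of 0. That step gives a gene of equal rank in every library the same value, so it cannot test this fall. With median-of-ratios factors the change of Lyz2 was −0.97 (limma, adjusted p = 3.4e-04), and it was −1.06 to −0.67 over single omissions. The call of Lyz2 was lost with no filter on low values and with only the 4 libraries in the fit. Ctsd, the lysosomal protease cathepsin D, lost the third most, at 2042 and 1952 FPKM at 10 h, against 4148 and 3163 FPKM in untreated cells. For Ctsd this was a log2 change of −0.86 ± 0.17 (limma, adjusted p = 0.00237). Among the called genes ranked in this way, Retnla gained the most FPKM. Lgals3, the lectin galectin 3, gained the fifth most, at 2075 and 2062 FPKM at 10 h, against 1266 and 1163 FPKM in untreated cells. The change of Lgals3 came to 0.77 ± 0.14 in log2 (limma, adjusted p = 0.00129).

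Few markers of other cell types were high enough to be tested. Cd4 was the only T and NK cell marker tested, at 1.23 and 1.06 FPKM at 10 h, against 4.77 and 4.21 FPKM in untreated cells. Cd4 changed by −1.35 ± 0.09 on the log2 scale (limma, adjusted p = 2.5e-06). The other 8 stayed below 0.2 FPKM. Of 3 tested endothelial markers, Pecam1 rose, at 2.83 and 2.79 FPKM at 10 h, against 0.124 and 0.0873 FPKM in untreated cells. Pecam1 had a log2 change of 1.78 ± 0.11 (limma, adjusted p = 1.0e-06). So did Vwf, at 4.84 and 4.85 FPKM at 10 h, against 1.69 and 1.55 FPKM in untreated cells. For Vwf this was a log2 change of 1.16 ± 0.11 (limma, adjusted p = 2.8e-05). Kdr fell, at 0.164 and 0.188 FPKM at 10 h, against 0.858 and 1.05 FPKM in untreated cells. The change of Kdr came to −0.73 ± 0.09 in log2 (limma, adjusted p = 1.5e-04). Tek of endothelium was 0 in all 4 libraries. Of the neutrophil sum, S100a8 held 49.4 and 41 FPKM at 10 h, against 59.8 and 46.4 FPKM in untreated cells. Fibroblast markers summed to 5.05 and 4.43 FPKM at 10 h, against 4.65 and 5.04 FPKM in untreated cells.

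The labelled Tet2 knockout cultures, which have untreated libraries of their own, gave a second set of 4 libraries for the same contrast. Both contrasts took their standard errors from the same fit of 12 libraries, so their calls are not independent tests. Which exons of Tet2 were deleted is not given in the labels, and reads of the whole gene do not check the label. Tet2 had 7.22 and 8.19 FPKM at 10 h and 4.02 and 4.48 FPKM untreated in labelled knockout cells, against 8.74 and 8.81 FPKM at 10 h and 4.11 and 5.91 FPKM untreated in wild-type cells. In the labelled knockout cells 4074 genes passed (38.8%), 2540 higher (24.2%) and 1534 lower (14.6%). Of the 548 genes at least 2-fold higher in wild-type cells, 536 were also called higher in labelled knockout cells, and of the 209 at least 2-fold lower, 200 were called lower. At the 2-fold threshold in both, 407 higher genes of the 10510 tested were shared. They were 74.3% of the wild-type and 83.9% of the 485 labelled knockout genes. The 168 shared lower genes were 80.4% of the wild-type and 65.9% of the 255 labelled knockout genes. Slc7a2, for example, had 27 and 28.4 FPKM at 10 h and 0.785 and 0.729 FPKM untreated in labelled knockout cells. Both 10 h libraries of these cells stood above the wild-type ones of 20.2 and 19.7 FPKM, and the difference of the responses did not pass (difference of log2 changes 0.30 ± 0.14, limma adjusted p = 0.994).

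The response itself differed by genotype label in 10 of 10510 genes (0.0951%), 6 with a higher change in labelled knockout cells (0.0571%) and 4 with a lower one (0.0381%). An unadjusted p under 0.05 was found for 428 genes (limma interaction), a smaller share than the 0.05 expected if no response differed. Of these 10, 5 are small RNAs or numbered gene models. Arg1 had 71.7 and 79.6 FPKM at 10 h and 1.63 and 1.45 FPKM untreated in labelled knockout cells, so that its change was 4.91 ± 0.12 there and 6.30 ± 0.12 in wild-type cells (difference of log2 changes −1.39 ± 0.17, limma adjusted p = 0.0113). Cldn11, a tight junction protein gene, had 3.52 and 4.35 FPKM at 10 h and 0 and 0 FPKM untreated in labelled knockout cells. In wild-type cells Cldn11 had 0.908 and 1.21 FPKM at 10 h and 0.0295 and 0 FPKM untreated (difference of log2 changes 1.28 ± 0.16, limma adjusted p = 0.0113). With a pseudocount of 0.1 the difference of Cldn11 did not pass (1.99, limma adjusted p = 0.104). With 1 FPKM required in every library, neither Cldn11 nor Slfn4, which is described below, was tested. Irg1, the enzyme that makes itaconate, had 4.48 and 4.88 FPKM at 10 h and 1.61 and 1.83 FPKM untreated in labelled knockout cells, and 2.18 and 2.11 FPKM at 10 h and 2.41 and 2.16 FPKM untreated in wild-type cells (difference of log2 changes 1.13 ± 0.14, limma adjusted p = 0.0113). Slfn4, an interferon-linked gene of the Schlafen family, had 2.39 and 2.35 FPKM at 10 h and 0.755 and 0.771 FPKM untreated in labelled knockout cells, and 1.23 and 1.43 FPKM at 10 h and 1.53 and 1.44 FPKM untreated in wild-type cells (difference of log2 changes 1.03 ± 0.13, limma adjusted p = 0.0113). Each of these 4 calls was lost when single libraries were left out, with adjusted p of up to 0.0940 for Arg1, and the whole count ranged over 5 to 62, being 62 without untreated wild-type replicate 1. The pseudogene Rpl31-ps12 had at most 0.365 FPKM in the labelled knockout libraries and at 10 h in wild-type cells, against 29 and 23.5 FPKM in untreated wild-type cells (difference of log2 changes 4.69 ± 0.18, limma adjusted p = 5.9e-07).

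**Figure D5:**
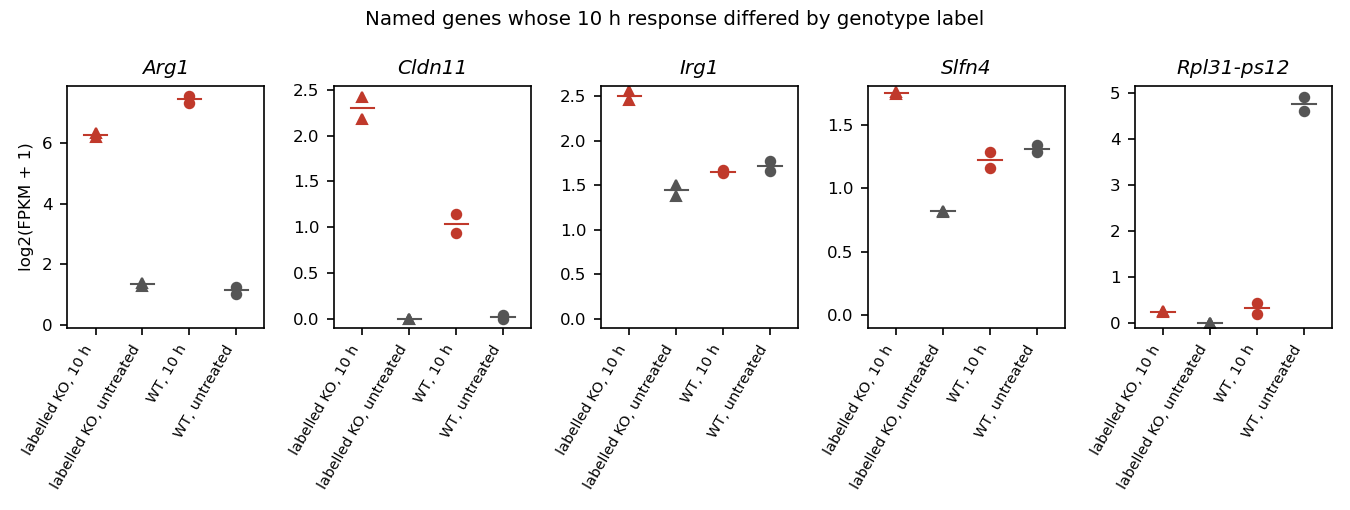
Values of each library as log2(FPKM + 1), with a separate y axis for each gene; triangles are labelled knockout and circles wild-type BMDM, red marks 10 h of IL4, grey untreated, and bars are means of 2 libraries. Arg1 is higher at 10 h in wild-type cells, Cldn11 in labelled knockout cells, and for Irg1 and Slfn4 the untreated labelled knockout libraries lie below and the 10 h ones above the wild-type libraries.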

How the data were processed

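Expression in BMDM was deposited by the authors as FPKM for 23309 rows, per the file headers. TopHat, Cuffdiff and the mm9 build are named in the submitters' processing notes. Versions, annotation, strand and filters are not given in the sources used here. Of the rows of 2 repeated symbols, those with the higher mean were kept, which left 23307 gene models. The deposited FPKM were turned into log2(FPKM + 1), with a pseudocount of 1. Genes reaching 1 FPKM in at least 2 of the 12 BMDM libraries were tested (10510).

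With limma 3.58.1 in R 4.3.3, the 12 libraries were fitted as 6 groups of genotype and time. The fit had 6 residual degrees of freedom (10.3 with the prior), empirical Bayes moderation and an intensity trend. The Benjamini-Hochberg adjustment ran over all tested genes, with a threshold of 0.05. Comparisons were 10 h against untreated in wild-type and labelled knockout BMDM, the difference of these responses, and 24 h against 10 h in wild-type BMDM. The last shares the 10 h libraries with the first. The steps were tested on simulated data. Python 3.11.15 was used for lists and figures, with pandas 2.3.3, numpy 2.4.6, and matplotlib 3.10.9.

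The comparison and its 51 gene lists were chosen with earlier results of these data known. Of 1194 list entries, 989 were tested. The others were low or not found by symbol, and a member that passed the filter only through the 10 h libraries had to differ. Genes were named by a rule. It took the 20 highest and 20 lowest called changes without overlap, the 5 largest gains and losses of mean FPKM, and all members of the IL4 pathway list. It added the smallest p-values, up to 4 genes in each list and 5 in each direction of the genotype difference, and called genes at 0 in both untreated libraries. The text gives a part of these. Csf1r, Emr1, Pax5, Cd3e, Flt3, Cdh5, Tek and Rpl34 were chosen outside the rule, after their values were seen. Numbered gene models and small RNAs were counted and not named. Alternatives were a pseudocount of 0.1, other filters, median-of-ratios and quantile scaling, no trend, only the compared libraries, a replicate block and leaving out each library.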

Additional observations from a re-analysis of the deposited data

Results flagged for a closer look

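The response to 10 h of IL4 differed between labelled knockout and wild-type cells, by the test of the difference itself, for 5 genes that can be named. The difference of the log2 changes, labelled knockout minus wild type, was −1.39 for Arg1, 1.28 for Cldn11, 1.13 for Irg1, 1.03 for Slfn4 and 4.69 for Rpl31-ps12 (limma adjusted p = 0.0113 for the first 4 and 5.9e-07 for the last). The 2 libraries of each group lay on the same side of the other group's 2 libraries for Arg1, Cldn11, Irg1 and Slfn4 at 10 h. These genes were picked by the test on the same libraries, so this separation adds no evidence. The call of Cldn11, which was at or near 0 in untreated cells, was lost with a pseudocount of 0.1. Rpl31-ps12 is a pseudogene whose reads may be shared with its parent gene and with other copies, and it was above 20 FPKM in both untreated wild-type libraries alone. No group of this report holds 4 or more libraries, so single libraries were not tested for standing apart within a group.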

How the results depend on the processing

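Of the changes of 148 named genes under all alternatives, 1710 of 1740 values kept their direction and their side of the threshold. The direction turned only for genes that had not passed: Csf1r (−0.067 with median-of-ratios factors, −0.34 after quantile normalization, where it passed as lower), Jak1 (0.0085 without untreated replicate 2, and −0.12 to 0.0085 over single omissions), Stat6 (0.096 without untreated replicate 1, and −0.23 to 0.096), Ptpn6 (−0.26 after quantile normalization, where it passed as lower, and −0.013 to 0.29 over single omissions), Socs4 (−0.066 with median-of-ratios factors, −0.074 after quantile normalization, and −0.10 to 0.15), Socs6 (−0.18 to 0.086) and Socs7 (−0.12 to 0.063). Leaving out 1 wild-type library, with the lone library left taken to vary like the other groups, gave 1921 to 3494 genes higher at 10 h and 938 to 1513 lower, the counts without 10 h replicate 1 being 1921 and 938 and those without 10 h replicate 2 being 2091 and 976. Quantile normalization gave 2323 lower genes, and 323 at least 2-fold lower; a pseudocount of 0.1 gave 401. The cause of these shifts was not tested. Genes whose response differed by genotype label numbered 31 with no filter, which tests more genes, 2 with 1 FPKM required in every library, 6 without wild-type 10 h replicate 1, and 5 to 62 over all single omissions, 5 without untreated wild-type replicate 2 and 62 without untreated wild-type replicate 1. Genes that differed between 24 h and 10 h numbered 1332 with only the libraries compared and 1230 to 2853 over single omissions, the lowest 2 being 1230 and 1384 without a 10 h library.

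Same-numbered replicates did not deviate together (r = 0.06 between the wild-type untreated and 10 h groups, −0.141 to 0.149 over the group pairs), so the numbers were taken as names. With the replicate block, 2875 genes were higher and 1461 lower at 10 h, 12 differed in response by genotype label and 2520 between 24 h and 10 h. With 2 libraries per group and no read counts, the precision of weakly expressed genes is not known.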
